A study of Homo sapiens with 6 samples.

Results

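UM-UC-3, a human cell line from a carcinoma of the bladder, was treated for 48 h with either of 2 siRNAs or with a negative control, and its RNA was sequenced. The series title and the column names give HSF1 as the target. The sample labels name no target and leave unsaid what the negative control consisted of. The 3 UM-UC-3 libraries, of 6 in the series, are the negative control, siRNA-1 and siRNA-2, with 1 library each. The labels give 0.04 OD of siRNA for the treatment. The other 3 libraries hold T24, a second bladder cancer line, treated in the same way and with its own negative control. Genes were kept at a mean of at least 1 CPM (reads scaled to library size) over the 3 UM-UC-3 libraries, which left 13433 of 23987 listed genes. Where 3 levels follow each other without a label, they stand for the control, siRNA-1 and siRNA-2, in that order. No label names separate cultures, and each line has 1 control library. Any p-value below therefore rests only on the spread between siRNA-1 and siRNA-2 libraries within the lines. That spread may be technical, includes any difference between the 2 siRNAs and holds no spread among controls. In cells harvested in bulk, fewer cells that make an RNA and less of that RNA in every cell cannot be told apart.

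HSF1 is the main transcription factor of the heat shock response. Unfolded protein frees it from a chaperone complex, it forms trimers, and it binds arrays of inverted GAA units, called heat shock elements, in the promoters of chaperone genes such as those of HSP70 and HSP90. In tumour cells it is also known to act outside heat stress, on genes of the cell cycle, translation and metabolism, and its protein is often abundant in carcinomas.

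The UM-UC-3 libraries held 24995420 (control), 27282437 (siRNA-1) and 28504833 (siRNA-2) reads, so that 1 read corresponded to 0.0400, 0.0367 and 0.0351 CPM. Protein-coding genes took 97.7%, 97.6% and 97.7% of reads, and the protein genes of mitochondrial DNA took 5.38%, 5.25% and 4.34%. Of 27 genes in the urothelial and keratin list, 15 were listed and 9 reached the filter. KRT18, a keratin of simple epithelium, was at 250.1 CPM in the control library, 191 under siRNA-1 and 186 under siRNA-2, and its partner KRT8 at 29.1, 24.4 and 24.2 CPM. EPCAM, CDH1, UPK1B, UPK3B, KRT20, KRT13, KRT17 and ELF3 were unlisted or at 0 reads in all 3 libraries, UPK1A stayed between 0.316 and 0.403 CPM, and GATA3 stood near 1 CPM. Of 16 markers of blood, endothelial, fibroblast and muscle cells, 6 were listed and 3 reached a mean of 1 CPM, with sums over the list of 6.96, 5.28 and 5.33 CPM, while PTPRC, LUM and PROX1 were unlisted or at 0 reads. The 3 were PECAM1 with 4.08, 3.7 and 1.93 CPM, MYH11 with 1.52, 0.586 and 0.982 CPM and PDGFRA with 0.96, 0.696 and 2.25 CPM.

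HSF1 itself was at 138 CPM in the control library, 50.3 under siRNA-1 and 36.5 under siRNA-2. Both siRNA libraries were therefore below the control, at 36.6% of it with siRNA-1 (95% interval from counting error alone, 34.3 to 38.9) and 26.6% with siRNA-2 (24.7 to 28.5). The mean log2 difference, on the log2(CPM + 1) scale used throughout, was -1.66 ± 0.33 (SE, 2 siRNA libraries against 1 control). That SE comes from the fit named next, which takes its spread from the siRNA libraries of both lines. In limma-trend, a linear model fitted to all genes and all 6 libraries as 4 groups, the unadjusted p was 0.00278 and the Benjamini-Hochberg adjusted p was 0.99996. By the smaller of its 2 siRNA differences, HSF1 ranked 6 among all lower genes and 4 among the genes that could be named (those with a symbol and a mean of at least 50 reads). HSF2, a related factor that can form mixed trimers with HSF1, was at 39.8 CPM in the control library, 39.7 under siRNA-1 and 40.3 under siRNA-2. HSF4, best known from the lens, was at 2.4, 3.45 and 1.96 CPM, with the control between the siRNA libraries. Of 5 tested genes in the list of heat shock factors and their binding proteins, HSF1 was the only one past 1.5-fold.

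PRMT5, the arginine methyltransferase that makes symmetric dimethylarginine, was at 56.1 CPM in the control library, 57 under siRNA-1 and 56.2 under siRNA-2. WDR5, the scaffold subunit of the MLL and SET1 histone methyltransferase complexes, was at 146, 152 and 137 CPM. For both genes the siRNA libraries differed from the control by less than the SE, 0.01 ± 0.36 for PRMT5 and -0.01 ± 0.27 for WDR5 on the log2 scale. None of the 13 tested arginine methyltransferase and PRMT5 complex genes, and none of the 19 WDR5 and MLL/SET1 complex genes, was past 1.5-fold in both libraries. Over all genes, 4.73% were at least 1.5-fold higher and 2.04% lower in both, so lists this short may hold none at those shares.

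Across all genes, 5360 were higher than the control in both siRNA libraries (39.9% of those tested), 4095 were lower in both (30.5%) and 3978 went in different directions (29.6%). At least 1.5-fold in both, 636 genes were higher (4.73%) and 274 lower (2.04%). At least 2-fold in both, 96 were higher (0.715%) and 28 lower (0.208%), of which 78 and 22 were protein coding. Both siRNA differences share the 1 control library, so a low or high value there moves a gene the same way in both. The median difference over all genes was 0.05 on the log2 scale, 0.04 with siRNA-1 and 0.06 with siRNA-2. Taken alone, siRNA-1 put 214 genes at least 2-fold above the control and 97 below it, and siRNA-2 put 521 above and 253 below.

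No gene passed an adjusted p of 0.05 in limma-trend (0.0% of 13433), and the smallest adjusted p was 0.99996. At an unadjusted p under 0.05 there were 523 genes, 373 higher (2.78%) and 150 lower (1.12%). On the reads recovered from the CPM, edgeR's quasi-likelihood test and limma-voom also called 0 genes, with 395 and 394 at an unadjusted p under 0.05. DESeq2 called 3, which were HIST1H4H, PPP1R3C and CH507-513H4.3. Every fold difference given below is therefore a description of these libraries. The limma-trend SE is given beside some of them, and values without it can have a wide one.

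The gene ranked first among the higher ones was HIST1H4H (ENSG00000158406), which encodes histone H4, at 2.0 CPM in the control library, 24.5 under siRNA-1 and 30.8 under siRNA-2. Both siRNA libraries were far above the control, by 3.25 ± 0.46 on the log2 scale (limma-trend unadjusted p = 0.000506, DESeq2 adjusted p = 5.19e-07). IGFBP3, a secreted carrier of insulin-like growth factors, was at 43.8 CPM in the control library, 188 under siRNA-1 and 222 under siRNA-2, a difference of 2.20 ± 0.60. PPP1R3C, a glycogen-targeting subunit of protein phosphatase 1, was at 22 CPM in the control library, 92.1 under siRNA-1 and 224 under siRNA-2, with siRNA-2 well above siRNA-1 (2.65 ± 0.56, DESeq2 adjusted p = 0.0259). TUBA1A, an alpha-tubulin, was at 59.4, 196 and 221 CPM, and both siRNA values lay close together, 1.79 ± 0.41 above the control. TPM4, a tropomyosin that coats actin filaments, was at 359.5, 1079 and 1003 CPM, 1.53 ± 0.25 above it. Tubulin and tropomyosin genes have near-identical relatives, so reads may have been split among them.

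Several of the 20 highest-ranked genes encode regulators of transcription or signalling. ID2, which blocks helix-loop-helix factors by pairing with them, was at 55.2 CPM in the control library, 159 under siRNA-1 and 212 under siRNA-2. DDIT4, an inhibitor of mTORC1 that responds to hypoxia and stress, was at 25.5 CPM in the control library, 72.8 under siRNA-1 and 79.7 under siRNA-2. CITED2, a coregulator that competes with HIF-1 for p300, was at 68.7, 185 and 279.8 CPM. In all 3 of these the control was the lowest library by a wide margin. KDM7A, a demethylase of histone H3, was at 10.4, 32.5 and 29.4 CPM, RFX3, a factor of cilium genes, at 10.7, 30.3 and 40 CPM, and SPRY3, of the Sprouty family of receptor kinase antagonists, at 2.76, 9.02 and 12.5 CPM. NCAM2, a neural cell adhesion molecule, was at 9.48, 30.8 and 47.9 CPM, and COL1A1, a chain of type I collagen, at 2.44, 7.92 and 12.3 CPM. The remainder were HIST1H2AC, HIST1H2BD, ZNF616, EXOC3-AS1, TCP11L2, PSMD5-AS1 and C1RL. The smaller of the 2 siRNA differences ran from 3.09 at HIST1H4H to 1.37 at the 20th gene. KDM6B, a demethylase of H3K27me3, was just outside, at 17.8, 46.6 and 57.4 CPM.

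**Figure D1:**
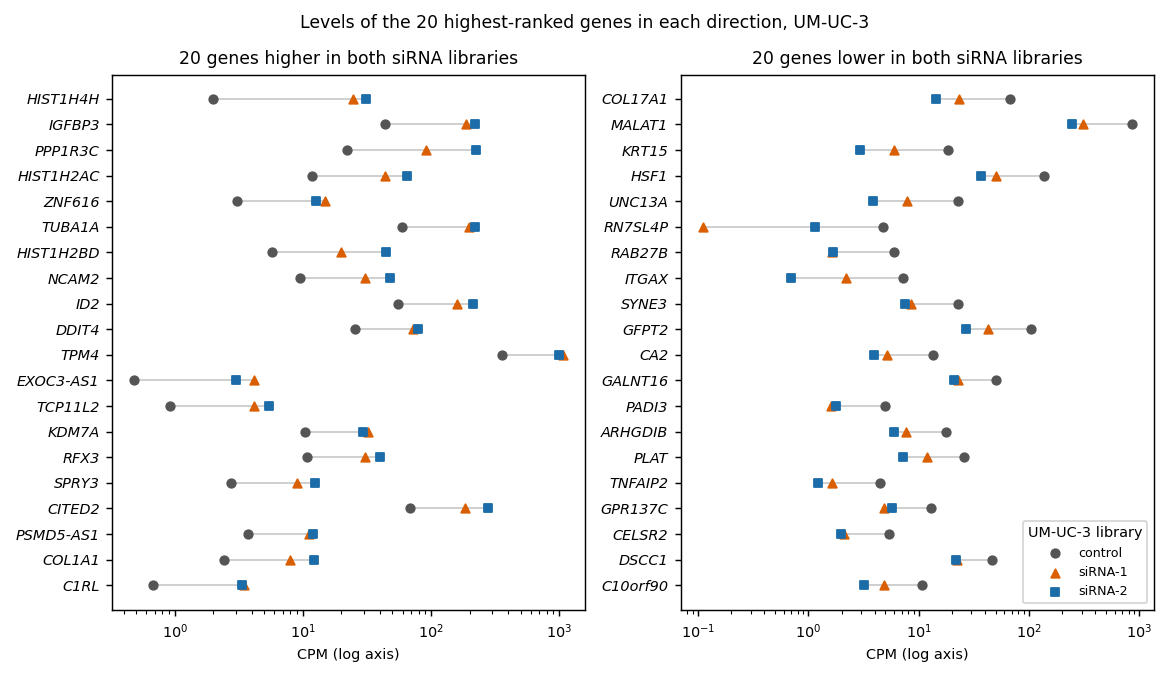
CPM on a log axis for the 20 genes ranked first in each direction, with 1 point for each UM-UC-3 library (grey circle, control; orange triangle, siRNA-1; blue square, siRNA-2). In every row the control lies on one side of both siRNA points, which is how the genes were chosen, and HIST1H4H spans the widest range on the left.

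Among the lower genes, COL17A1, the transmembrane collagen of hemidesmosomes, ranked first at 67.1 CPM in the control library, 23.5 under siRNA-1 and 14.3 under siRNA-2, a difference of -1.82 ± 0.67 on the log2 scale. MALAT1, an abundant nuclear noncoding RNA, was at 863 CPM in the control library, 310.2 under siRNA-1 and 244 under siRNA-2, so both siRNA libraries lay far below the control (-1.64 ± 0.42, limma-trend unadjusted p = 0.00828). KRT15, a basal keratin, was at 18.3, 5.97 and 2.95 CPM. Its SE of 1.20 was wide, because the fit takes the spread from the siRNA libraries of both lines.

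UNC13A, which primes synaptic vesicles, was at 22.7, 7.92 and 3.89 CPM, and RAB27B, a GTPase of secretory vesicles, at 5.92, 1.65 and 1.68 CPM. GFPT2, an enzyme of the hexosamine pathway, was at 104, 42.6 and 26.9 CPM, with siRNA-2 the lower of the siRNA libraries. CA2, a carbonic anhydrase, was at 13.4, 5.2 and 3.96 CPM, and PLAT, the tissue plasminogen activator, at 25.6, 11.9 and 7.26 CPM. SYNE3, a nuclear envelope protein, was at 22.8, 8.54 and 7.58 CPM. CELSR2, a cadherin of planar polarity, was at 5.36, 2.13 and 1.96 CPM. DSCC1, which helps load the PCNA clamp for sister chromatid cohesion, was at 45.8, 22.2 and 22 CPM, with the siRNA values almost equal. Its SE was still wide, -1.02 ± 0.56 on the log2 scale. The others were RN7SL4P, ITGAX, GALNT16, PADI3 (-1.15 ± 0.99, also a wide SE), ARHGDIB, TNFAIP2, GPR137C and C10orf90. For COL17A1 the smaller difference was 1.48 on the log2 scale, and each of the 20 genes was at least 2-fold below the control in both.

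RN7SL4P is a copy of the signal recognition particle RNA gene, and its reads cannot be told apart from those of its near-identical copies. It was at 4.72, 0.11 and 1.16 CPM. RN7SL2, named here after its values were seen, was at 51.1, 6.38 and 32.8 CPM, with siRNA-2 much nearer to the control than siRNA-1. A pair of lower genes without a symbol in the naming tables was also named after their values were seen. CH507-513H4.3 was at 50.4 CPM in the control library, 3.59 under siRNA-1 and 6.21 under siRNA-2, and DESeq2 gave it an adjusted p of 1.15e-07. In the GRCh38 annotation it lies within RNA18SN1, the 18S ribosomal RNA gene, on chromosome 21 from 8437629 to 8438551 on the minus strand. CH507-513H4.1, which contains another copy of the ribosomal RNA unit, was at 6.04 CPM in the control and 0.33 CPM under siRNA-1, with 0 reads under siRNA-2. Whether counting used strand is not stated, so reads from ribosomal RNA and reads from these genes cannot be told apart. The share of misc_RNA genes among all reads moved as well, with 0.00903% in the control and 0.00364% and 0.00689% under the siRNAs. The part that leftover ribosomal and small structural RNA plays in these values was not tested.

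Gene groups were described by their counts and their medians. The plot of list medians gives each list with at least 5 tested genes. By the mean of both siRNAs, the lists for DNA replication and for mitosis had the lowest medians, and the list of replication-dependent histones had the highest. With siRNA-2 alone, mitosis at -0.36 lay above NF-kB targets (-0.54), urothelial and keratin genes (-0.42), CCT and prefoldin (-0.39) and homologous recombination (-0.37).

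**Figure D2:**
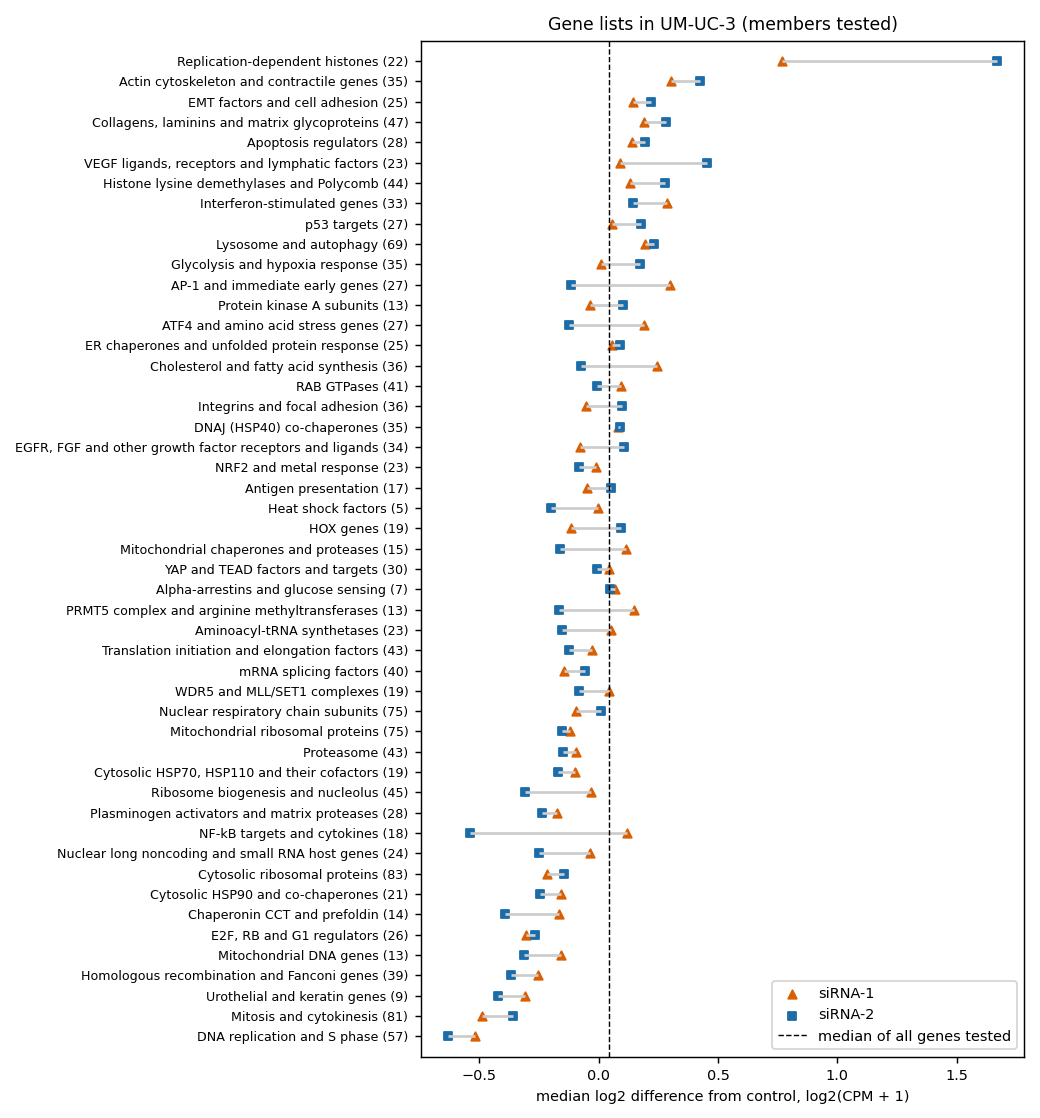
Median log2 difference from the control over the tested members of each gene list in UM-UC-3, with orange triangles for siRNA-1 and blue squares for siRNA-2. The number of tested members is in brackets, and the dashed line is the median of all 13433 genes, 0.05. Histones stand apart on the right with 0.77 and 1.67, and DNA replication lies at the other end with -0.52 and -0.63.

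Among chaperone genes, the classical targets of HSF1, the cytosolic HSP90, HSP70 and CCT lists held more lower than higher genes. The DNAJ list held more higher than lower genes, as did all genes together, with a median near theirs. Of 21 tested genes of cytosolic HSP90 and its co-chaperones, 12 were lower in both siRNA libraries (57.1%, against 30.5% of all genes) and 6 higher, and the median was -0.20 against 0.05 over all genes. HSP90AA1, the inducible HSP90, was at 3326 CPM in the control library, 2445 under siRNA-1 and 1580.5 under siRNA-2. HSP90AB1, the constitutive form, was at 3644 CPM in the control library, 2334 under siRNA-1 and 1955 under siRNA-2. In both genes the control was the highest and siRNA-2 the lowest library, and the log2 differences were -0.76 ± 0.33 and -0.77 ± 0.65. STIP1, which hands client proteins from HSP70 to HSP90, was at 601 CPM in the control library, 382 under siRNA-1 and 322 under siRNA-2, -0.77 ± 0.26 on the log2 scale. CHORDC1, an HSP90 co-chaperone, was at 205 CPM in the control library, 138 under siRNA-1 and 127 under siRNA-2. STIP1 and HSP90AB1 were the members past 1.5-fold in both libraries, 2 of 21 (9.52%, against 2.04% of all genes lower by that much). AHSA1, the activator of the HSP90 ATPase, was at 132, 123 and 92.2 CPM, FKBP4, an immunophilin, at 210.3, 188 and 139.9 CPM, and CDC37, which delivers kinases, at 152, 174 and 154 CPM.

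Among 19 tested genes of cytosolic HSP70, HSP110 and their cofactors, 11 were lower in both (57.9% against 30.5% of all genes) and 4 higher (21.1% against 39.9%). The median was -0.15. At least 1.5-fold in both, 2 were lower and 2 higher (10.5% each, against 2.04% and 4.73% of all genes). HSPH1, the HSP110 nucleotide exchange factor, was at 228 CPM in the control library, 137 under siRNA-1 and 112 under siRNA-2, -0.87 ± 0.31 on the log2 scale. HSPA8, the constitutive HSP70, was at 2077, 1736 and 1845 CPM. HSPA1A, a heat-inducible HSP70, was at 10.6 CPM in the control library, 10.8 under siRNA-1 and 10.1 under siRNA-2, so all 3 libraries lay within the SE of each other. Its near-identical neighbour HSPA1B was at 26.9, 25.4 and 18.3 CPM, and reads may have been split between the pair. STUB1, a ubiquitin ligase that acts on chaperone clients, went the other way, at 5.12, 9.57 and 9.72 CPM. Of 35 DNAJ genes, which stimulate HSP70, 15 were higher (42.9% against 39.9% of all genes) and 6 lower (17.1% against 30.5%). Their median was 0.03, against 0.05 over all genes. DNAJB1 was among the lower ones at 92.6, 79.2 and 61 CPM, as was DNAJA1 at 594, 488 and 398 CPM. HSPB1, the small heat shock protein HSP27, was at 71.2, 49.8 and 49.8 CPM. None of the 14 tested CCT chaperonin and prefoldin genes was higher in both libraries and 12 were lower (85.7% against 30.5%), with a median of -0.29. Of 15 mitochondrial chaperones and proteases, 5 were higher and 5 lower (33.3% each), near the shares over all genes. HSPE1, the cochaperonin HSP10, was at 8.96, 5.46 and 5.61 CPM, and its partner HSPD1 at 1092, 997 and 756 CPM.

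Promoter sequences of tested genes were read from RefSeq on GRCh38.p14, over 250 bases before to 50 after each start, and 10006 of 13433 genes had one. A heat shock element was searched for as 3 alternating units, GAA then TTC then GAA or the reverse, with 2 free bases between neighbours, which covers both strands. It was held by 0.3% of all promoters, by 1 of 15 in the HSP90 list (CHORDC1), by 1 of 14 in the HSP70 list (HSPA8) and by 2 of 32 DNAJ promoters (DNAJA1 and DNAJB6). A match is a description of the letters and not of a bound site. The promoters of CHORDC1, HSPA8 and DNAJA1, which were lower in both siRNA libraries, are shown so that the element can be read in place. DNAJB6 is not shown, so these 3 do not tell whether genes with the element were lower more often. Capitals mark each match, and overlapping matches run together.
CHORDC1 (chr11:90223000-90223299, - strand): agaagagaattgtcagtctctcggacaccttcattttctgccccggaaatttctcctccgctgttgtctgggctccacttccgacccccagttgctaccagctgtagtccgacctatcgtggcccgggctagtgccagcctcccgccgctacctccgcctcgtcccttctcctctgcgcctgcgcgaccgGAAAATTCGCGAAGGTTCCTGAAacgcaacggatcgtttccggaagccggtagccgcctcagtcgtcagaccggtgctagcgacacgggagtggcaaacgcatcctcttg
HSPA8 (chr11:123062087-123062386, - strand): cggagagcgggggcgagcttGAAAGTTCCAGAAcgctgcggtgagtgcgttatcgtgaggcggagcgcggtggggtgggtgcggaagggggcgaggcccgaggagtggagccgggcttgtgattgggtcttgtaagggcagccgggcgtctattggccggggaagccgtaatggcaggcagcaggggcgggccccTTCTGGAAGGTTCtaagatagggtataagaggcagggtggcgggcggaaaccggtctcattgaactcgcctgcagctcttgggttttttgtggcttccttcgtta
DNAJA1 (chr9:33025023-33025322, + strand): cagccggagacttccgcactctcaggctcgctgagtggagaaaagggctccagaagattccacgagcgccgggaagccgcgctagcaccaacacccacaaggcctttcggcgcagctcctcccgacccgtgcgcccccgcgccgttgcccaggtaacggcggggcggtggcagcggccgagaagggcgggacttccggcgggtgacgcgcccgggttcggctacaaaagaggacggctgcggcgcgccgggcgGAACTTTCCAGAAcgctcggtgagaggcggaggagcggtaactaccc
In CHORDC1 the 3 matches overlap in a single run, in HSPA8 there are 2 separate ones, and in DNAJA1 the single match lies just after the start. The log2 differences of these genes were -0.63 ± 0.41, -0.21 ± 0.49 and -0.43 ± 0.42. Over all genes, the element was in 1.04% of the promoters of those at least 1.5-fold lower in both libraries and in 0.422% of those at least 1.5-fold higher, that is 2 of 192 and 2 of 474.

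Genes of DNA replication were below the control almost throughout. Of 57 tested members, 55 were lower in both siRNA libraries (96.5%, against 30.5% of all genes), 22 were at least 1.5-fold lower in both (38.6% against 2.04%) and 1 was higher. The median was -0.55, with -0.52 for siRNA-1 and -0.63 for siRNA-2. Of the 57, 11 had a limma-trend unadjusted p under 0.05 and were lower, and none passed the adjusted threshold. The MCM proteins form the helicase that unwinds DNA at the fork. MCM5 was at 247 CPM in the control library, 127 under siRNA-1 and 103 under siRNA-2, MCM2 at 370.3, 199 and 183 CPM and MCM3 at 330.3, 212 and 193 CPM. CDC45, which activates that helicase, was at 69.9, 38.9 and 26.9 CPM. In each of these the siRNA libraries lay well below the control, and the differences ran from -0.71 ± 0.26 for MCM3 to -1.10 ± 0.41 for MCM5.

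PCNA, the sliding clamp, was at 416 CPM in the control library, 233 under siRNA-1 and 202 under siRNA-2, -0.94 ± 0.31 on the log2 scale. FEN1, which trims Okazaki fragments, was at 178, 95.8 and 94.4 CPM, and LIG1, which seals them, at 92, 50.5 and 48.4 CPM. TK1, thymidine kinase, was at 159.6, 94.3 and 91.8 CPM, with close values for the siRNA libraries. RRM2, the small subunit of ribonucleotide reductase, was at 328, 281 and 183 CPM, so siRNA-1 was nearer to the control there. E2F factors are known drivers of these genes. E2F1 was at 68.6 CPM in the control library, 40.4 under siRNA-1 and 31.9 under siRNA-2, and E2F2 at 53.1, 27.4 and 22.4 CPM. In the list of E2F, RB and G1 regulators, 14 of 26 were lower in both libraries (53.8% against 30.5% of all genes). In the same list 4 were higher (15.4% against 39.9%), and the median was -0.30. CCND1, cyclin D1, was at 764, 565 and 318 CPM, and RBL2, the pocket protein p130 of resting cells, was one of the higher members, at 49.1, 70.7 and 99.6 CPM. Among genes of homologous recombination and the Fanconi pathway, 29 of 39 were lower in both (74.4%) and 7 higher (17.9%), with a median of -0.35. FANCE, of the Fanconi core complex, was at 30, 16.6 and 14.4 CPM.

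Mitotic genes were also below the control almost throughout. Of 81 tested, 77 were lower in both siRNA libraries (95.1% against 30.5% of all genes) and none was higher in both. At least 1.5-fold lower in both were 12 (14.8% against 2.04%), and the median was -0.43. Here siRNA-1 had the lower median, -0.49 against -0.36, the reverse of the replication list. CDK1, the kinase of entry into mitosis, was at 215 CPM in the control library, 140.3 under siRNA-1 and 96.6 under siRNA-2, and its partner CCNB1, cyclin B1, at 240.0, 171 and 181 CPM. CKS1B, a small subunit that binds cyclin-dependent kinases, was at 139 CPM in the control library, 83.5 under siRNA-1 and 38.4 under siRNA-2, with siRNA-2 far the lowest. PTTG1, securin, was at 291, 162 and 183 CPM, and KIF2C, a kinesin that takes microtubules apart, at 213, 135 and 134 CPM. AURKA, the spindle pole kinase, was at 208, 114 and 151 CPM, and PLK1, polo-like kinase, at 135, 97.9 and 111 CPM. For both kinases siRNA-2 was nearer to the control. MKI67, the proliferation antigen, was at 884, 587 and 719 CPM, -0.44 ± 0.49 on the log2 scale.

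**Figure D3:**
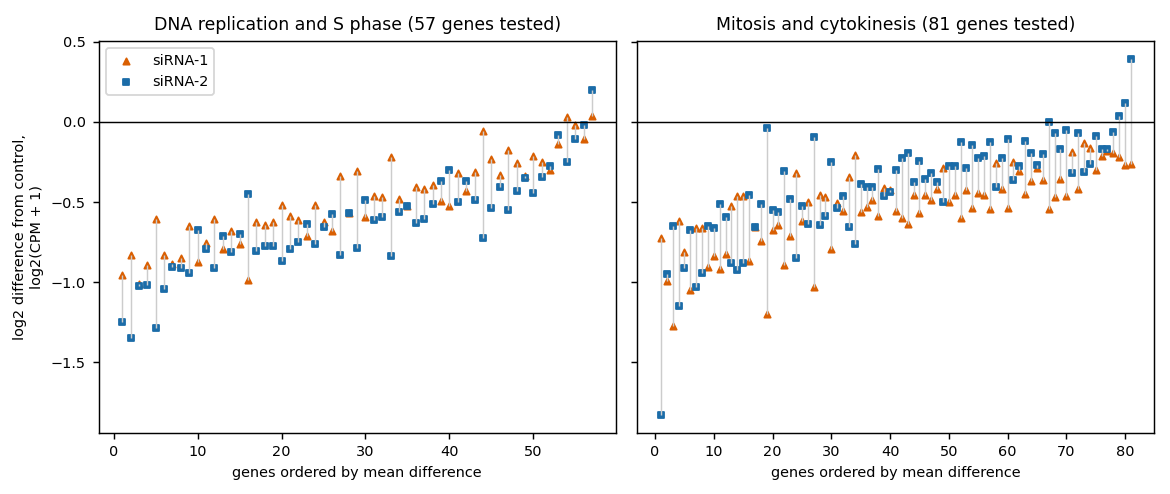
Log2 difference from the control for each tested gene of DNA replication (left, 57 genes) and mitosis (right, 81 genes) in UM-UC-3, ordered by the mean of both siRNAs, with orange triangles for siRNA-1, blue squares for siRNA-2 and a grey line joining them. Nearly all points lie under the zero line, with 55 and 77 genes lower in both libraries.

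Short words known from cell cycle promoters were counted in the same windows. E2F words (TTTCCCGC, TTTGGCGC, TTTCGCGC or TTTGCCGC, on either strand) were in 43.8% of the replication promoters, 21 of 48, against 5.53% of all and 10.4% of the mitotic ones. The cell cycle homology region (CHR, searched as TTTGAA on either strand), bound by the DREAM and MuvB complexes, was in 65.7% of the mitotic promoters, 44 of 67, against 9.67% of all and 4.17% of the replication ones. The promoters of 1 replication gene and 2 mitotic genes are shown with these words in capitals.
MCM2 (chr3:127598161-127598460, + strand): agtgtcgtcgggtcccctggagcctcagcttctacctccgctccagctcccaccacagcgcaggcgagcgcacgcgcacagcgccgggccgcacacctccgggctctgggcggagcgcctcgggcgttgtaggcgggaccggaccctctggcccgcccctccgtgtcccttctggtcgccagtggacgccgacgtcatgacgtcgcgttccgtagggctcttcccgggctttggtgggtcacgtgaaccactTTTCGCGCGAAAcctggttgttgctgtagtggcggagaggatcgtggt
CKS1B (chr1:154974431-154974730, + strand): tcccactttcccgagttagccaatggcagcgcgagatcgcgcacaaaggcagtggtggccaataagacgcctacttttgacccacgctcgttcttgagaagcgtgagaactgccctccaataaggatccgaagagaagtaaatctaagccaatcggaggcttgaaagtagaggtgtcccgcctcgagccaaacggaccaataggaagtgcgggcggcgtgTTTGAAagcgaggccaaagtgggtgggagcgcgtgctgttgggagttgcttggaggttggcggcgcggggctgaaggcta
SPC25 (chr2:168890381-168890680, - strand): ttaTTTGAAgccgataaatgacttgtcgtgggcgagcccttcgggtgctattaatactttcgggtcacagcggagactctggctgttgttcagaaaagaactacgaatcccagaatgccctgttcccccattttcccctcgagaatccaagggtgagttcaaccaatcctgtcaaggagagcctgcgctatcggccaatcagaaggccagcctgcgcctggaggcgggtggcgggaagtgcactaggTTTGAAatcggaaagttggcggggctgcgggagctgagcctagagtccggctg
In MCM2 the pair of E2F words overlaps as a palindrome just after the start. SPC25, of the NDC80 kinetochore complex, holds the CHR word at both ends of the upstream window, and its level was 18.4 CPM in the control library, 11.3 under siRNA-1 and 8.52 under siRNA-2.

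The replication-dependent histone genes, which supply nucleosomes in S phase and whose mRNAs normally end in a stem loop without a poly(A) tail, went the other way from the replication list. Of 40 in the list, 33 were in the files and 22 were tested, and all of those 22 were higher in both siRNA libraries. Among them 13 were at least 1.5-fold higher and 7 at least 2-fold. Over all genes, 39.9% were higher in both, 4.73% at least 1.5-fold and 0.715% at least 2-fold. The median was 1.26, with 0.77 for siRNA-1 and 1.67 for siRNA-2. A histone could pass the 1 CPM filter through the siRNA libraries alone, and 8 of the 22 had a control value below 1 CPM. Of the 14 with a control of at least 1 CPM, 14 were higher in both, 10 at least 1.5-fold and 7 at least 2-fold, with a median of 1.51. Of 11 listed histones below the filter, 2 were higher in both.

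HIST1H2AC was at 11.7 CPM in the control library, 43.9 under siRNA-1 and 65.3 under siRNA-2, and HIST1H2BD at 5.76 CPM in the control library, 19.9 under siRNA-1 and 44.5 under siRNA-2. HIST1H1C, the linker histone H1.2, was at 4.96, 12.2 and 31.3 CPM, HIST1H2BK at 7.04, 10.7 and 45.8 CPM, and HIST2H2BE at 1.6, 9.13 and 4.21 CPM. In the first 4 of these 5 genes siRNA-2 was the highest library, and in HIST2H2BE it was siRNA-1. Histone genes are near-identical in coding sequence, so reads may have been split among copies. All histones of the list together took 0.00574% of reads in the control and 0.0166% and 0.0318% under siRNA-1 and siRNA-2. The extract protocol names total RNA and no poly(A) step, and the part that the capture of RNA without a tail plays was not tested. H2AFZ, a histone variant that is made with a poly(A) tail, was lower, at 180.4, 107 and 115 CPM. The CCAAT word (or ATTGG) was in 86.4% of the histone promoters, 19 of 22, against 37.1% of all. It was also in 71.6% of the mitotic promoters and 56.2% of the replication ones. E2F words were in 22.7% of the histone promoters and the CHR word in 31.8%, against 5.53% and 9.67% of all. The promoter of HIST1H2AC is shown with its CCAAT words in capitals.
HIST1H2AC (chr6:26123922-26124221, + strand): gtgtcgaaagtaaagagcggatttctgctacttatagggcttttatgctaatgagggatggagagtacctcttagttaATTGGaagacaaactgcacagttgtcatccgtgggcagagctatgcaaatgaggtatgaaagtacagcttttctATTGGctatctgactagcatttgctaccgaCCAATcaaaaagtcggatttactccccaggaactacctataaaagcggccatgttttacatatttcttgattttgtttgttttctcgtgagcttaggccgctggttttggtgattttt

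**Figure D4:**
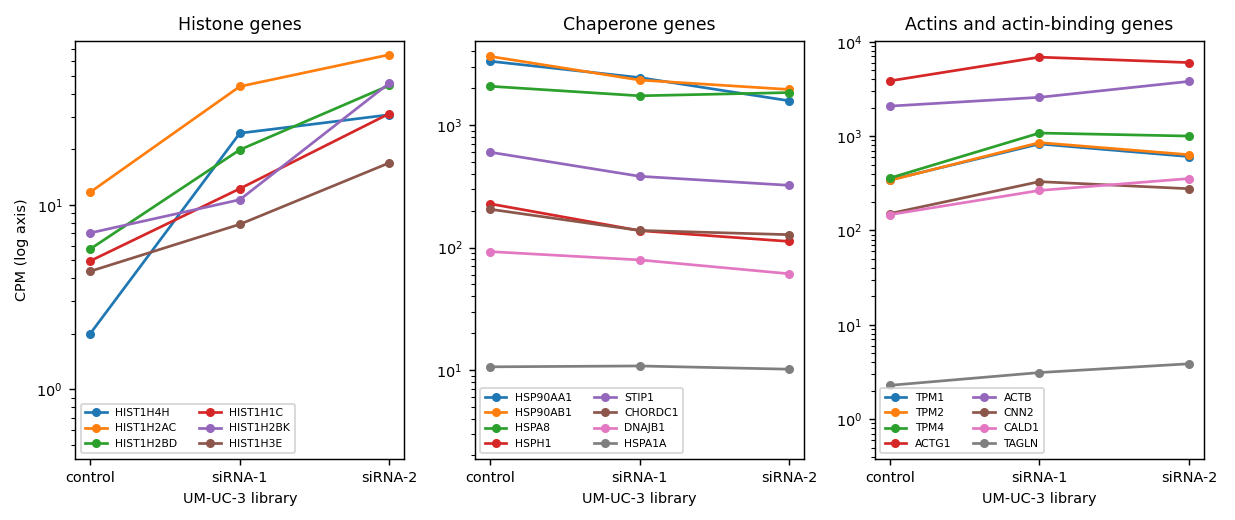
CPM on a log axis in the 3 UM-UC-3 libraries for 6 of the histone genes, 8 chaperone genes and 8 genes of actin or actin-binding proteins, with 1 line for each gene. The 6 histone genes plotted are lowest in the control and highest with siRNA-2, HSPA1A is level at the bottom of the chaperones, and the tropomyosins are highest with siRNA-1.

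Actin and contractile genes were above the control more often than the rest. Of 35 tested, 22 were higher in both (62.9% against 39.9%) and 7 lower, 9 were at least 1.5-fold higher in both (25.7% against 4.73%), and the median was 0.30. Besides TPM4, TPM2 was at 339.7 CPM in the control library, 854 under siRNA-1 and 636 under siRNA-2, and TPM1 at 343, 827 and 608 CPM. CNN2, a calponin, was at 151, 329 and 277 CPM, and CALD1, caldesmon, at 147, 266 and 355 CPM. ACTG1, a cytoplasmic actin, was at 3854 CPM in the control library, 6883 under siRNA-1 and 6028 under siRNA-2. In the tropomyosins and in CNN2 siRNA-1 was the higher siRNA library, and in CALD1 it was siRNA-2. CNN3, a second calponin, was lower, at 268, 184 and 155 CPM, and ACTN4, an actin crosslinker, was at 684, 681 and 565 CPM.

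Matrix and adhesion genes were mixed. Of 47 tested collagens, laminins and matrix glycoproteins, 26 were higher in both (55.3% against 39.9% of all genes) and 14 lower (29.8% against 30.5%). At least 1.5-fold in both, 9 were higher (19.1% against 4.73%) and 2 lower (4.26% against 2.04%), and the median was 0.25. PLOD2, which hydroxylates collagen lysines, was at 490.0, 952 and 1122 CPM, and HSPG2, perlecan, at 112, 246 and 212 CPM. COL5A1, a chain of type V collagen, was at 18.3, 32.3 and 52.2 CPM, and NID1, nidogen, was lower at 4.28, 1.03 and 1.93 CPM. Among 36 integrin and focal adhesion genes, 14 were higher (38.9%) and 12 lower (33.3%), near the shares over all genes. The median of 0.04 changed sign to -0.01 when CPM were rescaled by TMM factors. CAV1, caveolin, was at 349.8, 563 and 707 CPM, and SDC1, a syndecan, at 114, 66.9 and 31.4 CPM. Of 25 genes of epithelial to mesenchymal transition and cell adhesion, 9 were higher (36.0%) and 4 lower (16.0%), with a median of 0.26. Both shares were below those over all genes. L1CAM was at 26, 48.8 and 48 CPM, and VIM, vimentin, at 874, 762 and 715 CPM.

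Of 28 plasminogen activator and matrix protease genes, 12 were lower in both (42.9% against 30.5%), 7 were higher, and 4 were at least 1.5-fold lower (14.3% against 2.04%). PLAU, urokinase, was at 864 CPM in the control library, 551 under siRNA-1 and 315 under siRNA-2, and its receptor PLAUR at 121, 84.6 and 62.8 CPM. MMP9, a gelatinase, was at 23.4, 11.9 and 5.68 CPM. With PLAT, these genes had the highest level in the control and the lowest with siRNA-2. EGFR was at 168, 107 and 101 CPM and AXL, another receptor kinase, at 378, 239 and 199 CPM.

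In the VEGF and lymphatic list, 12 of 23 genes were higher in both (52.2% against 39.9%) and 4 lower, with a median of 0.21. VEGFA, the main ligand of blood vessel growth, was at 72.2 CPM in the control library, 137 under siRNA-1 and 213 under siRNA-2, 1.23 ± 0.52 on the log2 scale. VEGFC, the ligand of lymphatic growth, was at 18.5, 27.9 and 26.8 CPM, while FLT4, its receptor, was at 6.72, 3.67 and 4.42 CPM. NRP2, a co-receptor, was at 12.6, 6.12 and 7.61 CPM, lower in both siRNA libraries. NDRG1, a gene of the hypoxia list, was at 252 CPM in the control library, 563 under siRNA-1 and 587 under siRNA-2, 1.19 ± 0.26 on the log2 scale (limma-trend unadjusted p = 0.00439). In that list 15 of 35 were higher (42.9%) and 9 lower (25.7%), near the shares over all genes, with a median of 0.12.

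Lysosome and autophagy genes were higher in 39 of 69 cases (56.5% against 39.9%) and lower in 11 (15.9% against 30.5%), with a median of 0.16. At least 1.5-fold in both, 9 were higher (13.0% against 4.73%) and none was lower (against 2.04%). GABARAPL1, an autophagosome protein, was at 5.52, 14.8 and 13.2 CPM, CTSD, cathepsin D, at 23.4, 57.9 and 46.7 CPM, and OPTN, an autophagy receptor, at 47.5, 90.3 and 103 CPM. Of 44 histone lysine demethylase and Polycomb genes, 25 were higher (56.8% against 39.9%) and 10 lower (22.7% against 30.5%), with a median of 0.20. EZH2, the Polycomb methyltransferase, was among the lower ones at 113, 72.4 and 63.2 CPM, and its relative EZH1 among the higher ones at 34, 48.2 and 77.9 CPM. Of 33 interferon-stimulated genes, 19 were higher (57.6% against 39.9%) and 8 lower (24.2% against 30.5%), with a median of 0.19. SAMD9 was at 36.1, 75.8 and 90.4 CPM, its neighbour SAMD9L at 7.76, 17.1 and 18.2 CPM and ISG15, a ubiquitin-like modifier, at 7.56, 17.1 and 14.1 CPM.

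Ribosomal protein, ribosome biogenesis, proteasome and mitochondrial DNA genes had medians slightly below the control. Of 83 cytosolic ribosomal protein genes, 60 were lower (72.3% against 30.5%) and 6 higher, with a median of -0.19. RPS15 stood out from the others, at 85.4, 277 and 208 CPM, above the control in both. Over all genes, 30.5% were lower and 39.9% higher. Of 75 mitochondrial ribosomal protein genes, 44 were lower (58.7%) and 12 higher (16.0%), with a median of -0.12. Of 45 ribosome biogenesis genes, 27 were lower (60.0%) and 4 higher (8.89%), with a median of -0.17. Of 43 proteasome genes, 26 were lower (60.5%) and 6 higher (14.0%), with a median of -0.13. Of the 13 protein genes of mitochondrial DNA, 9 were lower (69.2%) and 1 higher (7.69%), with a median of -0.31. Other translation genes were nearer to the control. Of 43 initiation and elongation factors, 21 were lower (48.8%) and 8 higher (18.6%), with a median of -0.07. Of 23 aminoacyl-tRNA synthetases, 5 were lower (21.7%) and 7 higher (30.4%), with medians of 0.05 for siRNA-1 and -0.15 for siRNA-2. No member of the ribosome biogenesis, proteasome or mitochondrial DNA lists was past 1.5-fold in both libraries. Over all genes, 4.73% were higher and 2.04% lower by that much. For ER chaperones the median was 0.06, for ATF4 and amino acid stress genes 0.07 and for AP-1 and immediate early genes 0.11, and with TMM factors these stood at -0.01, 0.02 and 0.06. The direction of the latter lists depended on the siRNA, with 0.19 for siRNA-1 and -0.12 for siRNA-2 in the ATF4 list and 0.30 and -0.12 in the AP-1 list. Of 18 tested NF-kB targets and cytokines, 8 were lower (44.4%) and 1 higher (5.56%). Their median was 0.12 for siRNA-1 and -0.54 for siRNA-2.

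T24 gives a separate control for the same numbered siRNAs. HSF1 in T24 was at 106 CPM in its control, 20.3 under siRNA-1 and 22.7 under siRNA-2. At 2-fold, 96 genes were higher in UM-UC-3, 79 of them with a mean of at least 1 CPM in T24, and 188 were higher in T24 (1.43% of the 13162 at that level there). Of these, 5 were in both lists (5.21% and 2.66% of them). The lower lists held 28 genes, 19 of them at that level in T24, and 497 genes (3.78%), with 4 in both (14.3% and 0.805%). At 1.5-fold, 100 genes were in both higher lists (15.7% of 636 and 9.45% of 1058) and 81 in both lower lists (29.6% of 274 and 6.69% of 1210). Only 553 of the 636 and 207 of the 274 had a mean of at least 1 CPM in T24 and could be called there. Over all genes in T24, 8.04% were at least 1.5-fold higher and 9.19% at least 1.5-fold lower. Of the 20 lower genes ranked first in UM-UC-3, 14 were also lower with both siRNAs in T24 and 0 were higher with both. Of the 20 higher genes, 5 were higher with both in T24 and 7 were lower with both. Of all genes tested in UM-UC-3, 29.2% were lower and 37.6% higher with both siRNAs in T24.

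The cell cycle lists lay in the same direction in both lines. The T24 median was -0.92 for DNA replication and -1.35 for mitosis, against -0.55 and -0.43 in UM-UC-3. The histone median in T24 was 0.63. For the cytosolic HSP70 list the T24 median was -0.41, against -0.15 in UM-UC-3. For the cytosolic HSP90 list it was -0.045, against -0.20 in UM-UC-3, with 0.038 for T24 siRNA-1 and 0.058 for T24 siRNA-2. Other lists lay on opposite sides of 0. ER chaperones had a median of -1.36 in T24 against 0.06, and the VEGF list -0.69 against 0.21. For ER chaperones the UM-UC-3 median was near that of all genes, 0.05, and with TMM factors it was -0.01. ATF4 and amino acid stress genes had a median of -1.17 in T24, where the UM-UC-3 siRNAs gave 0.19 and -0.12. CCT and prefoldin genes, mitochondrial DNA genes and mitochondrial ribosomal proteins had T24 medians of 0.36, 0.63 and 0.55, all above 0, where UM-UC-3 had -0.29, -0.31 and -0.12.

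**Figure D5:**
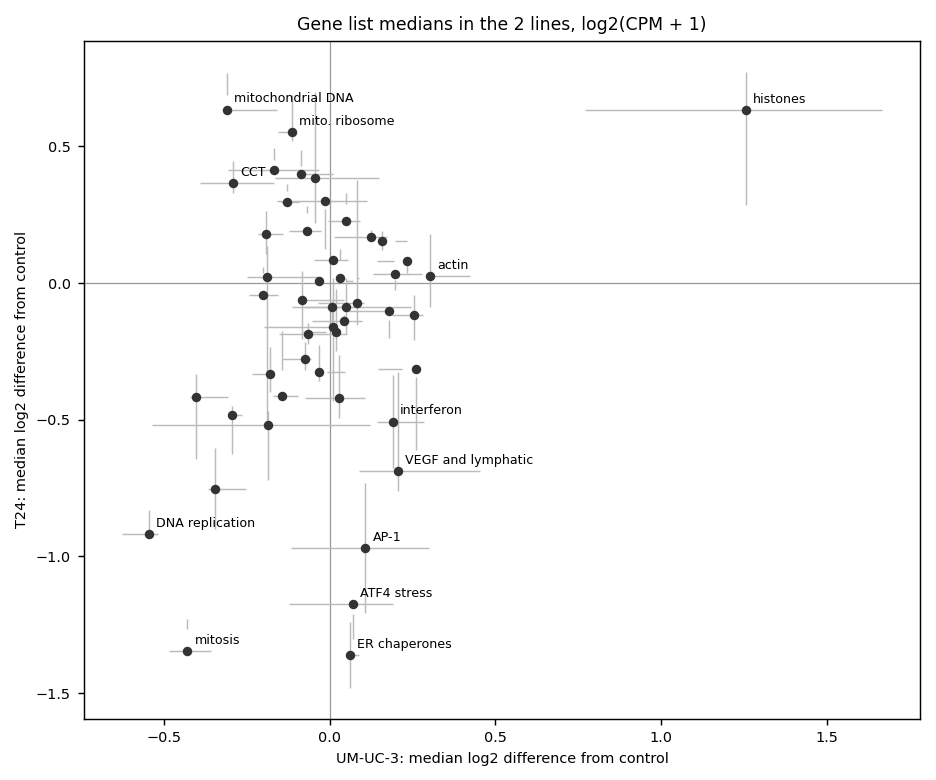
Median log2 difference from the control of each gene list in UM-UC-3 (horizontal axis) and T24 (vertical axis). Points are medians of the mean of both siRNAs, and grey lines span the medians of siRNA-1 and siRNA-2 alone, so a line need not cross its point. DNA replication and mitosis lie at the lower left, histones at the upper right with 1.26 and 0.63, and ER chaperones near 0 in UM-UC-3 but at -1.36 in T24.

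The difference between the lines was also fitted gene by gene. No gene passed an adjusted p of 0.05 in limma-trend (0.0% of 13433, smallest adjusted p 0.923), and 629 had an unadjusted p under 0.05 (4.68%), 424 with the larger value in UM-UC-3 and 205 with the smaller. edgeR and limma-voom called 0 genes and DESeq2 37, 34 of them with the larger value in UM-UC-3. DDIT4 had the smallest unadjusted p, 0.000116, and in T24 it was at 131 CPM in its control, 27.8 under siRNA-1 and 26.7 under siRNA-2, the opposite of UM-UC-3. CTGF, a matricellular protein, was at 168, 225 and 177 CPM in UM-UC-3 and at 531, 69.6 and 66.5 CPM in T24. FN1, fibronectin, was at 7.96, 14 and 10.9 CPM in UM-UC-3 and at 1481, 189.5 and 238 CPM in T24. For these 2 genes and for IFI44 (21, 18 and 18.2 CPM, against 85, 5.43 and 6.13 CPM) the difference lay mostly in T24. MT-ND6, a subunit of respiratory complex I, went from 73.4 CPM to 342 and 395 in T24 and was at 532, 477 and 585 CPM in UM-UC-3. MAP1A, SLC16A9 and ODC1 were the other genes with the smallest p and a larger value in T24.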

How the data were processed

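Libraries of 6 samples (4 groups, 2 lines) were sequenced as paired ends. The deposited values are CPM per gene, normalized by the authors to each library's reads. Per the submitters' processing notes, bcl2fastq 2.19.1, HISAT2 2.1.0 and HTSeq 0.6.1 were used with hg19/GRCh37, and their settings and the strand setting are not given in the sources used here. Every CPM column gave whole reads (100% of values of at least 1 read were within 0.01 of a whole number). A count of 0 was written as 0.5 read, kept so and left out of that share. The UM-UC-3 tables were joined by Ensembl ID, and 4104 missing values were set to 0. The listed genes summed to all but 0.0145% to 0.0207% of each UM-UC-3 library's total. Gene names stored as dates were put back for 24 genes. No value column was left unmapped (0).

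Log2(CPM + 1) was fitted with limma-trend (limma 3.58.1, R 4.3.3) as 4 group means over all 6 libraries with 2 residual degrees of freedom, after a filter at a mean of 1 CPM in UM-UC-3, with Benjamini-Hochberg adjustment. The test was tested on simulated data. Alternatives on recovered reads used edgeR 4.0.16, limma-voom and DESeq2 1.42.0. Counting intervals are exact and cover counting error only. Genes were named by rule: HSF1, PRMT5 and WDR5, the 20 higher and 20 lower genes with a symbol, at least 50 reads on average and the largest smaller difference, up to 6 members of each of 51 lists with members whose role was needed, and 4 genes in each direction for the line difference. Members and lists were chosen with earlier results of these data known. Promoters are from RefSeq (GRCh38.p14), and gene positions from an annotation of GRCh38, not the authors' build. A few list members are not reported here.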

Additional observations from a re-analysis of the deposited data

Results flagged for a closer look

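Lists were flagged where the median lay above 0 in one line and below 0 in the other, with each siRNA and for their mean. There were 13 of 49, and the difference between lines was not tested for any of them. The signs are those in CPM, and with TMM factors the UM-UC-3 median of ER chaperones fell to -0.0052. Cytosolic HSP90 and co-chaperones had opposite signs with each siRNA (-0.16 and -0.25 in UM-UC-3, 0.038 and 0.058 in T24). Their T24 median for the mean of both siRNAs was -0.045, so they are not among the 13. UM-UC-3 medians above 0 and T24 medians below it were found for ER chaperones and the unfolded protein response (0.060 and -1.36), interferon-stimulated genes (0.19 and -0.51), VEGF ligands, receptors and lymphatic factors (0.21 and -0.69), collagens, laminins and matrix glycoproteins (0.25 and -0.12), EMT factors and cell adhesion (0.26 and -0.32) and p53 targets (0.18 and -0.10). The reverse held for the chaperonin CCT and prefoldin (-0.29 and 0.36), the proteasome (-0.13 and 0.30), translation initiation and elongation factors (-0.070 and 0.19), ribosome biogenesis and nucleolus (-0.17 and 0.41), mitochondrial DNA genes (-0.31 and 0.63), cytosolic ribosomal proteins (-0.19 and 0.18) and mitochondrial ribosomal proteins (-0.12 and 0.55).

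Of the 40 genes ranked first in either direction, 7 were higher with both siRNAs in UM-UC-3 and lower with both in T24, and 6 of these had a T24 control of at least 1 CPM. The other was PPP1R3C, which had 0.337 CPM there. The differences between lines of the 6, on the log2 scale, were 4.07 for ID2, 3.77 for DDIT4, 2.50 for CITED2, 2.09 for RFX3, 1.83 for KDM7A and 1.70 for C1RL. Each had a limma-trend adjusted p of 0.923. For ID2 the DESeq2 adjusted p was 1.48e-06, the limma-trend adjusted p with a term for the siRNA number was 0.00195 and that without T24 siRNA-1 was 0.0402. For DDIT4 these were 5.42e-09, 0.00152 and 0.0471. CITED2 was called with the term for the siRNA number (limma-trend adjusted p = 0.0140), and the other 3 genes under none of these settings. DESeq2 and the fit with a term for the siRNA number each called 37 genes for the difference between lines, and 24 genes were in both sets. That term ties the libraries of the lines together by the label of the siRNA only.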

How the results depend on the processing

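HSF1 kept its direction under all 13 alternatives tried, between -1.88 and -1.43 on the log2 scale. Its DESeq2 adjusted p was 0.145. For siRNA against control, limma-trend called 0 genes under each other pseudocount, filter, scaling and omission, edgeR and limma-voom called 0, DESeq2 called 3, and limma-trend with the replicate block, a term for the siRNA number shared by the lines, called 4. The numbers are shared by labels only: siRNA-2 minus siRNA-1 correlated at 0.41 over genes between the lines, with 2 pairs. For the difference between lines the block called 37, DESeq2 37, and leaving out T24 siRNA-1 gave 3, where other omissions gave 0. The alternatives on that difference in scale, pseudocount and tool were chosen after seeing the data.

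The 2-fold counts depended on the pseudocount: 155 higher at 0.5, and 59 higher and 18 lower at 2. At a mean of at least 5 CPM, 17 were lower. With a single siRNA library the 2-fold counts ran from 214 to 521 higher and from 97 to 253 lower, and the 1.5-fold counts from 1143 to 1790 higher and from 706 to 1054 lower. TMM factors moved the medians of the HSP70 and HSP90 lists to -0.21 and -0.27. With 1 siRNA library left out, the replication median ran from -0.63 to -0.52 and the actin median from 0.30 to 0.42. Of 45 other lists, 21 changed sign under at least 1 alternative. Of 351 values of single genes, 347 kept direction and side of the threshold, and the other 4 were calls gained. With 1 control library, its own error cannot be measured.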
